A study of Mus musculus with 12 samples.

Results

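The coreceptor genes Cd4, Cd8a and Cd8b1 were followed through the RNA of lymph node T cells from normal and FlipFlop mice. They were taken by gene symbol, each symbol matched 1 gene, and they are 3 of the 12809 genes in the expression table. All 3 passed the filter on low values, which asked for at least 1 CPM (reads scaled to a common library total) in at least 3 libraries. The 12 libraries form 4 groups of 3. B6 CD4 and B6 CD8 cells came from female C57BL/6 mice labelled 10 weeks old, with unaltered coreceptor genes. FlipFlop CD4 and FlipFlop CD8 cells came from female FlipFlop mice labelled 14 weeks old, which is older than the age range the study's methods give for its mice. In FlipFlop mice both copies of the Cd8a locus were altered to encode CD4, by an allele derived from the 4in8 mouse. Both copies of the Cd4 locus were altered to encode CD8β and CD8α.1 joined by an internal ribosome entry site, by an allele from the 8in4 mouse that carries a neomycin resistance cassette. No change to the Cd8b1 gene itself was described. Strain and age cannot be told apart in any comparison of FlipFlop with B6. Nothing in the labels says whether the replicates were separate animals or pools, so p-values measure the spread between libraries, which may be technical.

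T cell coreceptors bind the same major histocompatibility complex (MHC) molecule that the T cell receptor recognises and bring the kinase Lck to it. CD4 is a single chain that binds MHC class II. CD8 on conventional T cells is a pair of CD8α and CD8β that binds MHC class I, and CD8β reaches the cell surface only when paired with CD8α. In normal mice CD4 marks helper cells and CD8 marks cytotoxic cells, and silencers and enhancers at the loci set which gene stays on. In FlipFlop mice the 2 proteins were exchanged between loci, which separates the coreceptor a cell carries from the gene locus that makes it. B6 CD4 and FlipFlop CD8 cells both carry a coreceptor made from the Cd4 locus and are the cells the study calls helper lineage. B6 CD8 and FlipFlop CD4 cells carry one made from the Cd8a locus and are called cytotoxic lineage.

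All 3 genes lie on mouse chromosome 6 in GRCm38, the assembly also called mm10. Cd4 (ENSMUSG00000023274.14) spans chr6:124864692-124888221 on the minus strand, and its coding sequence opens in exon 2 of 10. Cd8b1 (ENSMUSG00000053044.8) spans chr6:71322788-71337494 on the plus strand, with the start codon in exon 1 of 6. Cd8a (ENSMUSG00000053977.13) spans chr6:71373427-71379173 on the plus strand, with the start codon in exon 1 of 5. Cd8b1 and Cd8a are 35.9 kb apart, and Cd4 lies 53.5 Mb away on the same chromosome. The first 60 coding bases of each gene are shown because the altered alleles encode these proteins at another locus, so that reads of a coding sequence in FlipFlop cells need not come from the gene's own locus. Capitals mark the start codon. They were read from the GENCODE transcripts and span chr6:124879467-124879654 for Cd4, chr6:71373553-71373612 for Cd8a and chr6:71322857-71326002 for Cd8b1, with an intron inside the Cd4 and Cd8b1 spans.
Cd4: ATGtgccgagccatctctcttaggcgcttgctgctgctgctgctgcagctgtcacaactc
Cd8a: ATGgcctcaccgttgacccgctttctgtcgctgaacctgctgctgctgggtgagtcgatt
Cd8b1: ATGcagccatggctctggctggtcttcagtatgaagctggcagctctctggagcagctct

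The coding part is 1374 bases of the 3108-base Cd4 transcript, 744 of the 3128-base Cd8a transcript and 642 of the 1483-base Cd8b1 transcript. It thus makes up 44.2%, 23.8% and 43.3% of each. How reads from inserted sequences were counted, and how much untranslated sequence the inserts keep, is not given in the sources used here. A CPM from an altered locus may therefore stand for another number of molecules than the same CPM from the normal locus.

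The deposited values are TMM-scaled CPM. Their smallest steps gave the depth, 26600000 to 33100000 reads on listed genes per library, so that 3 reads were worth between 0.0857 and 0.120 CPM. All members were above that level in all 12 libraries. B6 CD4 replicate 1 stood somewhat apart. It differed from its 2 partners by a root mean square of 0.37 and 0.44 on the log2 scale, against 0.24 to 0.32 for the other 10 replicate pairs. Leaving it out kept every call made for the 3 genes in all 9 comparisons. The 8 T cell markers summed to 4683 to 7154 CPM. Rag1, Rag2, Ptcra and Arpp21, markers of double positive thymocytes, were not among the genes listed. The other two of that list, Cd1d1 and Dntt, summed to 30.7 to 60.8 CPM. The 8 B cell markers summed to 578 to 725 CPM, most of it Ighm, and the 5 listed myeloid markers to 7.25 to 30.6 CPM.

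Each gene was compared between groups with limma on log2(CPM + 0.5), with all 12 libraries and all 11595 genes that passed the filter, and Benjamini-Hochberg adjustment over those genes. A difference was called at an adjusted p under 0.05. Cells had been sorted on surface CD4 and CD8, so within a strain the presence of one coreceptor and absence of the other was set by the sort. The informative comparisons are those between strains, those of Cd8b1 in FlipFlop cells, and the levels at which each transcript remained. In bulk RNA, fewer cells that make a transcript and less of it per cell cannot be told apart.

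Cd4 RNA was found at high levels in both kinds of CD4-bearing cells, whichever locus made it. In B6 CD4 cells it was 961, 1090 and 1016 CPM. In FlipFlop CD4 cells, where CD4 protein is encoded at the Cd8a locus, it was 719, 652 and 637 CPM. The FlipFlop libraries all lay below the B6 libraries. The means were 669.7 ± 43.6 and 1022 ± 65.0 CPM (SD, n = 3 each), so the FlipFlop level was 65.5% of the B6 level. The log2 difference was -0.61 (SE 0.24, 95% interval -1.14 to -0.08), and it was not called (limma adjusted p = 0.0805). In this comparison 28.4% of all genes tested were called. The call depends on which libraries set the spread. The SD of log2 values was 0.70 among the 3 B6 CD8 libraries, which hold few Cd4 reads, and 0.09 in each of these 2 groups, and limma pooled them. With only the 6 libraries compared the limma adjusted p was 0.00369, and over 20 alternatives it ranged from 0.00369 to 0.179.

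In cells without surface CD4 the strains differed. B6 CD8 cells had 2.40, 0.600 and 1.39 CPM of Cd4, from 64, 15 and 42 reads. FlipFlop CD8 cells had 40.9, 42.2 and 43.6 CPM, from 1272, 1276 and 1524 reads. No library of either group came near the other. The mean rose from 1.46 ± 0.900 to 42.2 ± 1.33 CPM (SD, n = 3 each), 28.9-fold, a log2 difference of 4.55 (SE 0.24, limma adjusted p = 2.73e-08), in a comparison that called 44.7% of all genes. The order of Cd4 levels was therefore B6 CD4, FlipFlop CD4, FlipFlop CD8 and B6 CD8, and of the neighbours in that order the first pair was not called.

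Cd8a, the chain without which no CD8 reaches the surface, was highest in B6 CD8 cells. There it was 1496, 1500 and 1472 CPM. FlipFlop CD8 cells, which make CD8α from the Cd4 locus, had 159, 139 and 138 CPM. All FlipFlop libraries were far below all B6 libraries although both groups were sorted for surface CD8. The mean fell from 1489 ± 15.3 to 145 ± 11.7 CPM (SD, n = 3 each), which left 9.76% of the B6 level, a log2 difference of -3.36 (SE 0.21, limma adjusted p = 1.11e-07). Cd8a was the gene ranked 108 from the top by mean CPM in B6 CD8 cells and 1126 in FlipFlop CD8 cells.

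Both CD4-bearing groups held Cd8a at about 1 CPM. B6 CD4 cells had 0.827, 0.420 and 1.59 CPM, from 22, 13 and 52 reads, and FlipFlop CD4 cells had 0.854, 0.942 and 0.967 CPM, from 26 reads in each library. The ranges overlapped, and the log2 difference was 0.06 with a 95% interval of -0.40 to 0.51 (limma adjusted p = 0.871). The altered Cd8a locus, which makes CD4 in these cells, thus gave no detectable increase of Cd8a reads over B6 CD4 cells at this depth. Its sign turned to -0.23 when B6 CD4 replicate 2 was left out.

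Cd8b1, which encodes CD8β, followed the lineage more than the surface protein. It was 1893, 1924 and 1839 CPM in B6 CD8 cells and 1962, 1887 and 1639 CPM in FlipFlop CD4 cells, which carry no surface CD8. These ranges overlapped. The means were 1885 ± 43.2 and 1829 ± 169 CPM (SD, n = 3 each), and the log2 difference was -0.05 with a 95% interval of -0.29 to 0.19 (SE 0.11, limma adjusted p = 0.842). In this pair of groups 7.92% of all genes were called. Cd8b1 ranked 86 from the top in B6 CD8 cells and 82 in FlipFlop CD4 cells.

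In FlipFlop CD8 cells Cd8b1 was far lower, at 151, 136 and 125 CPM, although the altered Cd4 locus encodes CD8β there. The mean of 137 ± 12.9 CPM (SD, n = 3) was 7.28% of the B6 CD8 mean, with a log2 difference of -3.78 (SE 0.11, limma adjusted p = 2.41e-10). B6 CD4 cells had the least, 28.1, 20.7 and 22.7 CPM from 749, 640 and 742 reads. FlipFlop CD8 cells exceeded them 5.76-fold, by 2.51 on the log2 scale (SE 0.11, limma adjusted p = 3.93e-08), in a comparison that called 27.6% of all genes. Within FlipFlop mice the CD4-bearing cells held 13.3 times as much Cd8b1 as the CD8-bearing cells (log2 difference 3.73, SE 0.11, limma adjusted p = 4.55e-10). Between B6 CD4 and B6 CD8 cells the same difference was -6.29 (SE 0.11, limma adjusted p = 7.31e-12). These comparisons called 31.3% and 25.4% of all genes.

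**Figure D1:**
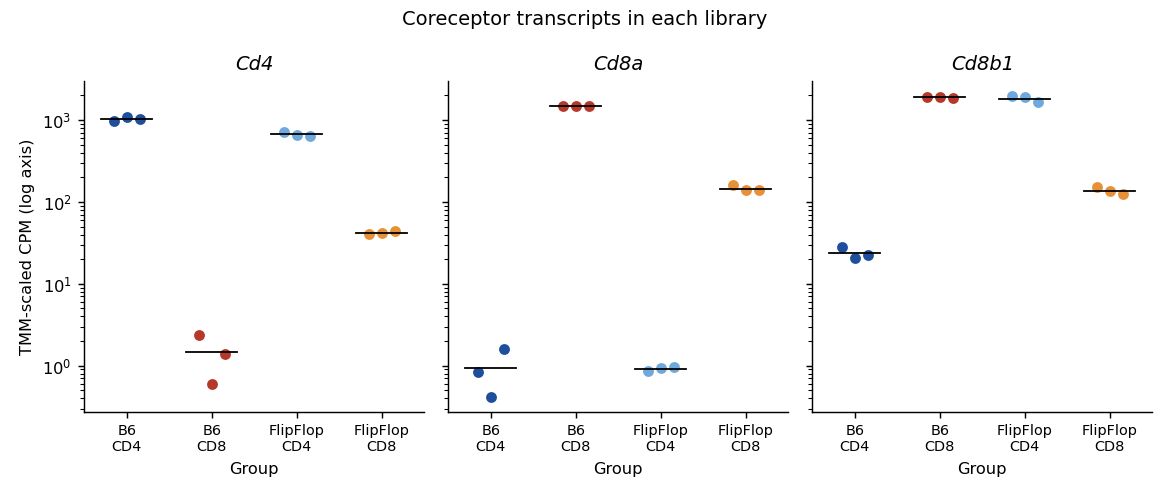
TMM-scaled CPM of Cd4, Cd8a and Cd8b1 on a log axis in the 3 libraries of each group (points) with the group mean (line). Cd8b1 averages 1885 CPM in B6 CD8 cells and 1829 CPM in FlipFlop CD4 cells, whereas Cd8a is near 1 CPM in FlipFlop CD4 cells and Cd4 is near 42.2 CPM in FlipFlop CD8 cells.

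The 4 groups were also arranged as 2 crossed effects. The coreceptor effect sets the CD4-bearing groups against the CD8-bearing groups, and the lineage effect sets the helper groups, B6 CD4 with FlipFlop CD8, against the cytotoxic groups. For Cd8b1 the lineage effect was -5.01 (SE 0.08, limma adjusted p = 5.13e-13) and the helper and cytotoxic libraries did not overlap, while its coreceptor effect was -1.28 (SE 0.08, limma adjusted p = 3.54e-06) with overlapping libraries. For Cd8a the order was the other way, with a coreceptor effect of -8.38 (SE 0.15, limma adjusted p = 8.07e-12) and a lineage effect of -1.71 (SE 0.15, limma adjusted p = 1.60e-06). Cd4 resembled Cd8a with the opposite sign, at 6.55 and 2.58 (SE 0.17 each, limma adjusted p = 4.14e-10 and 1.42e-07). All 3 genes were called for both effects. The lineage effects of Cd8a and Cd4 average strains that went opposite ways, and their helper and cytotoxic libraries overlapped. The coreceptor effect of Cd8b1 likewise averages -6.29 in B6 mice and 3.73 in FlipFlop mice. Between CD4-bearing and CD8-bearing cells Cd8a differed by -10.09 in B6 mice and -6.68 in FlipFlop mice, and Cd4 by 9.13 and 3.97, so that the sign followed the sorted coreceptor in both strains. Over all genes tested, 5.49% were called for the coreceptor effect and 39.3% for the lineage effect.

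The Cd8a to Cd8b1 ratio within a library does not depend on library size. In B6 CD8 cells, where separate genes give the chains, the ratio of CPM was 0.790, 0.779 and 0.800. In FlipFlop CD8 cells it was 1.05, 1.03 and 1.10. The FlipFlop libraries all had the higher ratio, 1.06 ± 0.0385 against 0.790 ± 0.0105 (SD, n = 3 each), which is 1.34-fold or 0.42 on the log2 scale. The exact permutation test, two-sided, gave p = 0.1, the smallest that 3 against 3 allows. Per kilobase of all annotated exons the ratio of CPM was 0.322 ± 0.00427 in B6 CD8 and 0.432 ± 0.0157 in FlipFlop CD8 cells, and per kilobase of coding sequence it was 0.682 ± 0.00904 and 0.914 ± 0.0333. The same annotated lengths were used for both groups, so the ratio between the groups is the same on each scale by construction. The lengths of the inserted sequences in FlipFlop cells are not given and may differ from these. The ratio within a group depends on which length is used.

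Mean Cd8a was low and alike in both kinds of CD4-bearing cells, at 0.946 (B6) and 0.921 CPM (FlipFlop). Mean Cd8b1 was 23.8 (B6) and 1829 CPM (FlipFlop), so the mean ratio differed between these groups through Cd8b1. B6 CD4 libraries had ratios of 0.0294, 0.0203 and 0.0701. In FlipFlop CD4 cells Cd8b1 exceeded Cd8a 1999 ± 302 times (SD, n = 3), against 1.27 ± 0.0168 times in B6 CD8 cells with a like Cd8b1 level. Cd8a and Cd8b1 thus differed far more in FlipFlop CD4 cells than in the other groups. The Cd8a locus was altered to encode CD4 in these mice, so low Cd8a there was set by the allele and the sort. The gap is a description and no result about neighbouring genes.

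**Figure D2:**
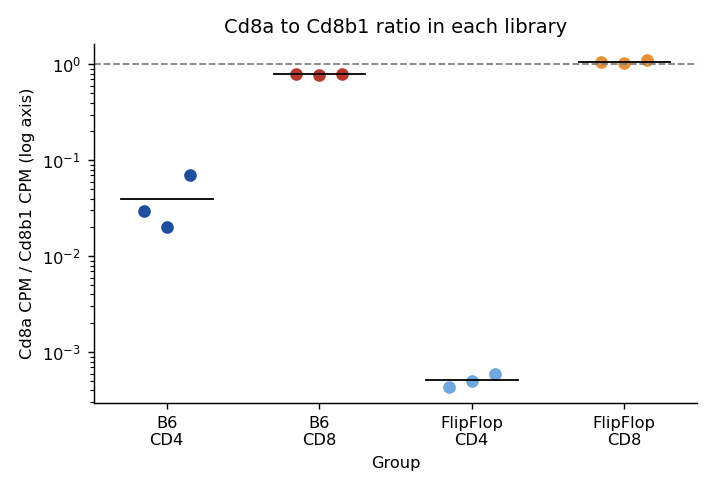
Ratio of Cd8a CPM to Cd8b1 CPM on a log axis in the 3 libraries of each group (points) with the group mean (line); the dashed line marks equal CPM. B6 CD8 libraries lie at 0.779 to 0.800, FlipFlop CD8 libraries at 1.03 to 1.10 and FlipFlop CD4 libraries below 0.001.

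Next, each transcript in the cells sorted to lack its protein was expressed as a percent of its mean in the same strain's cells that carry it. Cd4 in B6 CD8 libraries was 0.234%, 0.0587% and 0.136% of the B6 CD4 mean, and in FlipFlop CD8 libraries it was 6.10%, 6.30% and 6.50% of the FlipFlop CD4 mean. Cd8a in B6 CD4 libraries was 0.0555%, 0.0282% and 0.107% of the B6 CD8 mean. In FlipFlop CD4 libraries it was 0.587%, 0.649% and 0.665% of the FlipFlop CD8 mean, a larger percent of a much smaller mean. Cd8b1 in B6 CD4 libraries was 1.49%, 1.10% and 1.21% of the B6 CD8 mean, and in FlipFlop CD4 libraries it was 1332 ± 123% of the FlipFlop CD8 mean. The strains did not overlap for any of the 3 genes, and the exact permutation test, two-sided, gave p = 0.1 each time, the smallest possible.

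The residual levels were set beside those of other genes. The part of wrongly sorted cells in them was not tested. For Cd4 in FlipFlop CD8 cells, neither was the part of Cd4 sequence that the altered Cd4 locus may keep. Of 8001 other genes with at least 10 CPM in FlipFlop CD4 cells, 6 were lower in every FlipFlop CD8 library than Cd4, relative to the FlipFlop CD4 mean. The lowest of them, Slc6a19, a neutral amino acid transporter chosen after its values were seen, was at 1.22% of 40.5 CPM, below the 6.30% of Cd4. Cd8b1 in FlipFlop CD8 cells was 7.51% of its FlipFlop CD4 mean, and 9 of the 8001 genes were lower. In B6 CD4 cells Cd8b1 was at 1.26% and Cd8a at 0.0636% of their B6 CD8 means. Of 7970 genes with at least 10 CPM in B6 CD8 cells, 4 were lower than Cd8b1 in every B6 CD4 library.

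Reference genes of each lineage, set out in the opposite lineage of the same strain, gave a scale. Zbtb7b, which encodes the helper factor ThPOK, was at 0.790% in B6 CD8 and 1.36% in FlipFlop CD4 cells. Foxp3, the factor of regulatory T cells, was at 0.894% and 0.610%. Cd40lg, the helper ligand CD40L, was at 1.09% and 5.40%, and Ctla4, an inhibitory receptor, at 8.55% and 9.87%. Among cytotoxic genes, Nkg7, a granule protein, was at 2.42% in B6 CD4 cells and 10.4 ± 10.7% (SD, n = 3) in FlipFlop CD8 cells, where single libraries ranged from 3.41% to 22.8%. Eomes, a T-box factor, was at 10.3% and 20.8%, and Prf1, the gene of perforin, at 38.2% and 23.6%. Cd160, a receptor of cytotoxic cells, was at 19.2% and 58.3%, and Itgae, the αE integrin, at 17.4% and 108.5%. Some marker lists also differed in the FlipFlop CD8 group. The 4 listed gamma delta T cell markers summed to 25.4 to 27.8 CPM there and to 8.44 to 16.6 CPM elsewhere. The higher sum came from Tcrg-C4, Tcrg-C2 and Tcrg-C1, at 8.77, 6.65 and 4.39 CPM in FlipFlop CD8 cells, while Trdc, the delta constant gene, was at 7.03 CPM there and at 7.32 to 10.3 CPM in the other groups. The 5 listed natural killer markers summed to 24.2 to 37.3 CPM, between the 13.1 to 14.8 CPM of B6 CD4 and the 46.3 to 95.3 CPM of both cytotoxic groups. Most of the sum in the cytotoxic groups was Eomes, at 69.1 and 64.9 CPM, while Klrb1c was highest in FlipFlop CD8 cells, at 10.8 CPM against 1.82 to 3.52 CPM elsewhere. The 5 listed myeloid markers summed to 15.8 to 27.6 CPM in FlipFlop CD8 and 7.25 to 9.39 CPM in FlipFlop CD4 cells. In B6 cells they summed to 8.96 to 30.6 CPM. None of the genes listed was at 0 in any library of these groups. Their part in the coreceptor values was not tested.

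**Figure D3:**
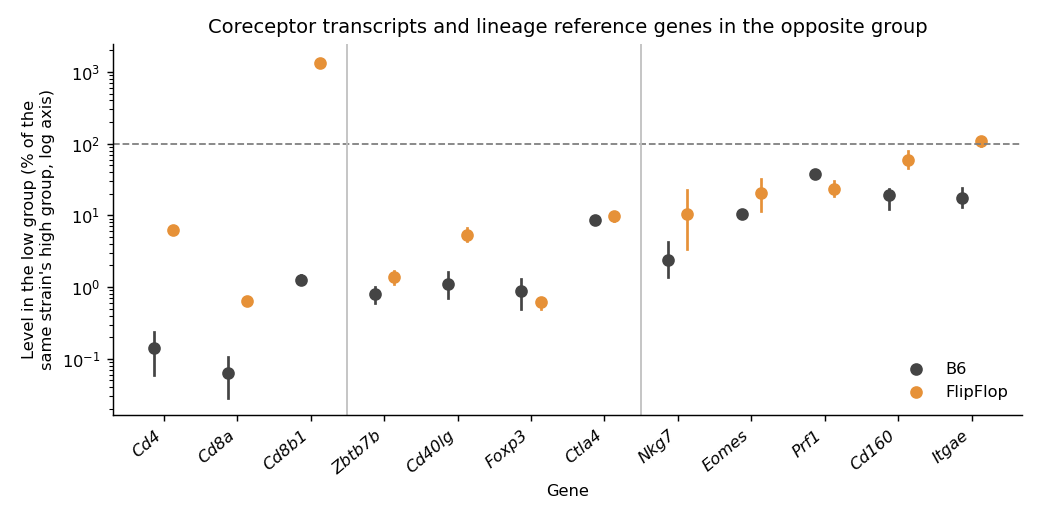
Mean percent (points) and range over 3 libraries (lines) on a log axis. Each coreceptor gene is shown in the group sorted to lack its protein, and each helper or cytotoxic reference gene in the opposite lineage, relative to the same strain's other group. Cd8b1 in FlipFlop CD4 cells is the point at 1332%, far above the 100% line.

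The genes around the coreceptors were examined because they share a stretch of chromosome with the altered loci. The paper attributes a few exceptions in FlipFlop cells to genes of another mouse strain, left from the stem cells behind the altered Cd8a locus. Whether the neighbours carry such sequence, and its part in their values, was not tested. Within 250 kb lay 27 listed genes around Cd4, of which 25 passed the filter, and 11 around the Cd8 genes, of which 8 passed. Of these 33 genes, 6 were higher and 4 lower in the helper lineage, against 19.9% and 19.4% of all genes tested. The higher genes include Gpr162 and Gm44597 and the lower ones Gm44174, which passed the filter only with the libraries of the group where each is high. These counts were not stable, with 13 higher without the TMM factor, 3 higher among genes averaging at least 5 CPM, 8 lower with the replicate block and 7 lower without B6 CD4 replicate 1. The median lineage effect was 0.00 over the neighbours and -0.03 over all genes. For the coreceptor effect, 2 neighbours were higher and 1 was lower, against 1.71% and 3.78% of all genes, with medians of 0.03 and 0.01. The lower one was Gm44174, which passed the filter only through the group where it is high, and with genes averaging at least 5 CPM 0 were lower.

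Around Cd4, 5 genes were counted as higher in the helper lineage. They include Gpr162 and Gm44597, which passed the filter only with the FlipFlop CD8 libraries, where each is high. Of the rest, Ptms and Lag3 had the largest effects and lie nearest to Cd4. Ptms, which encodes parathymosin, lies 25.5 kb from Cd4 and was at 60.6 ± 12.8 CPM in B6 CD4 cells and 75.2 ± 2.95 CPM in FlipFlop CD8 cells, against 10.5 ± 1.32 in B6 CD8 and 26.9 ± 1.30 in FlipFlop CD4 cells (SD, n = 3 each). Its lineage effect was 1.97 (SE 0.09, limma adjusted p = 5.34e-09). Lag3, an inhibitory receptor related to CD4 that also binds MHC class II, was at 27.1 ± 1.56 CPM in the helper group of B6 mice and 32.5 ± 5.65 CPM in that of FlipFlop mice, against 5.32 ± 1.33 and 17.4 ± 2.31 CPM in their cytotoxic groups (SD, n = 3 each). Its lineage effect was 1.57 (SE 0.12, limma adjusted p = 3.82e-07). Ptms and Lag3 were also called for the coreceptor effect, at 0.50 and 0.70 (limma adjusted p = 0.00775 and 0.00468), averages of strains that went opposite ways. Between CD4-bearing and CD8-bearing cells Ptms differed by 2.46 in B6 mice and by -1.47 in FlipFlop mice (limma adjusted p = 4.12e-08 and 2.76e-06). Gpr162, an orphan receptor gene less than 1 kb from Cd4, was low throughout, at 0.785 CPM in B6 CD4 cells and 1.55 CPM in FlipFlop CD8 cells against 0.148 and 0.109 CPM in the cytotoxic groups. It reached 1 CPM only in the FlipFlop CD8 libraries, so no test is given for it.

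Between Cd8b1 and Cd8a lie a pair of listed noncoding genes with different patterns. Gm44174, a lincRNA on the plus strand at chr6:71353035-71373284, ends 142 bases before Cd8a. It was at 2.81, 2.56 and 2.39 CPM in B6 CD8 cells, from 75, 64 and 72 reads. In the other 9 libraries it had 1 read in all, in FlipFlop CD4 replicate 1. Taking 3 reads per library as the floor, it was at least 24.3-fold higher in B6 CD8 than in FlipFlop CD4 cells, and at least 25.7-fold and 27.6-fold higher than in B6 CD4 and FlipFlop CD8 cells. It passed the filter only through the B6 CD8 libraries, where it is high, so no test is given for it. Whether its reads belong to Cd8a transcripts that begin further upstream was not tested.

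Gm44175, a lincRNA on the minus strand at chr6:71354351-71360829, did not pass the filter and is given for contrast, chosen after its values were seen. It was at 1.16, 0.680 and 0.629 CPM in B6 CD8 cells and 0.854, 0.399 and 1.04 CPM in FlipFlop CD4 cells. It was at most 0.129 CPM in B6 CD4 cells and had no read in FlipFlop CD8 cells. Smyd1, a muscle methyltransferase gene within 1 kb of Cd8b1, was likewise below the filter and chosen after its values were seen. It was at 0.682 ± 0.202 and 1.07 ± 0.290 CPM in B6 CD8 cells and in FlipFlop CD4 cells against 0.0711 ± 0.0686 and 0.106 ± 0.0521 CPM in the helper groups of B6 and FlipFlop mice (SD, n = 3 each). Like Cd8b1, both were higher in every library of the cytotoxic groups than in every library of the helper groups. The other gene around the Cd8 genes that was below the filter, the lincRNA Gm1070, did not separate them, with 0.223 CPM in FlipFlop CD4 replicate 3 and 0.225 CPM in B6 CD4 replicate 1. Gm44174, the one nearest Cd8a, was near 0 in FlipFlop CD4 cells. How reads from overlapping transcripts or opposite strands were assigned is not given in the sources used here.

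**Figure D4:**
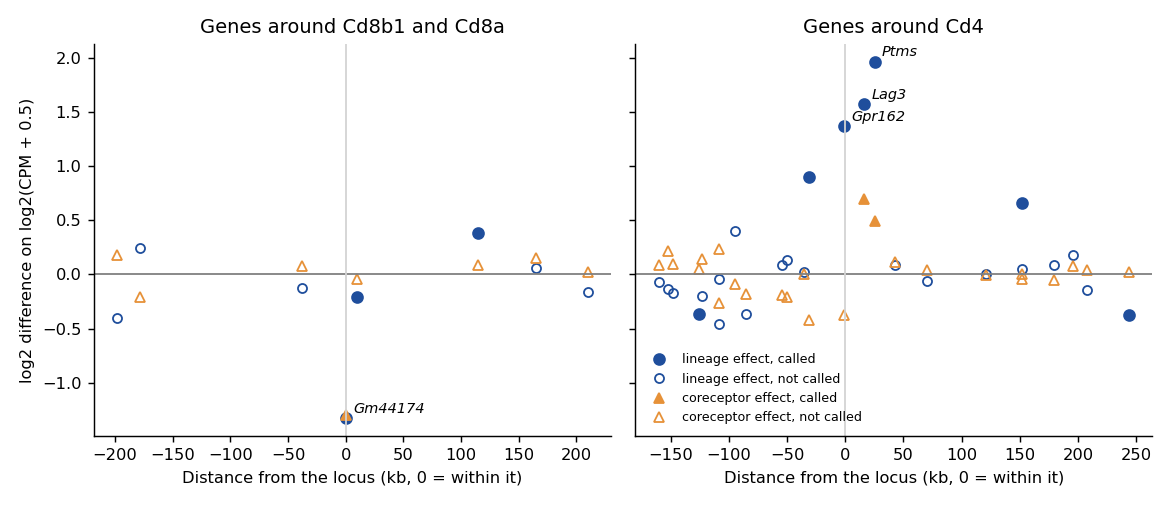
log2 lineage effect (circles) and coreceptor effect (triangles) of the tested genes within 250 kb of the Cd8 genes (left) and Cd4 (right), against their distance from the locus in kb. Filled symbols were called. Ptms and Lag3 beside Cd4 have lineage effects of 1.97 and 1.57. Gpr162 and Gm44597 passed the filter only with the FlipFlop CD8 libraries, and Gm44174 only with the B6 CD8 libraries. Each is high there, so their points are a description.

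The stretch before the start of Cd8a is shown because it is the part of the locus where Gm44174 ends and Cd8a begins, from which Cd8a RNA came at 1489 CPM in B6 CD8 cells. It is the RefSeq promoter sequence of the GRCm38.p6 table, chr6:71373177-71373426, plus strand. Capitals mark 2 matches to GATA or its complement TATC, the core that GATA3 binds, and 2 matches to the E-box CANNTG, the core that E proteins bind.
Cd8a upstream: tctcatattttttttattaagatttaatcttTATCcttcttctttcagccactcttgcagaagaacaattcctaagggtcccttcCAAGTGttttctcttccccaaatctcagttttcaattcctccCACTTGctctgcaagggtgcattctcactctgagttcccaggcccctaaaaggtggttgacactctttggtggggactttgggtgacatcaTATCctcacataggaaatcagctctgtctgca
A GATA match was found in 53.6% and an E-box match in 66.2% of the 32851 promoter windows of the table, each 250 bases before the start, on either strand. The Runx core TGTGGT was not found in this stretch and was found in 14.0% of all windows.

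Of 29 genes known to regulate the coreceptor loci, all 29 were tested, and 9 were higher and 5 lower in the helper lineage, against 19.9% and 19.4% of all genes, with a median of -0.03, as over all genes. Zbtb7b was at 196 ± 5.99 CPM in B6 CD4 cells and 168 ± 5.62 CPM in FlipFlop CD8 cells, and at 1.55 ± 0.416 and 2.29 ± 0.464 CPM in B6 CD8 cells and in FlipFlop CD4 cells (SD, n = 3 each). Its lineage effect of 6.27 (SE 0.10, limma adjusted p = 5.13e-13) was the largest of the list. ThPOK represses the Cd8 genes and antagonises silencing of Cd4. Runx3, which binds the Cd4 silencer in cytotoxic cells, had a lineage effect of -1.03 (SE 0.08, limma adjusted p = 5.05e-07). It was at 63.9 and 57.2 CPM in the helper groups B6 CD4 and FlipFlop CD8 and at 111 and 138 CPM in B6 CD8 cells and in FlipFlop CD4. Gata3, which acts upstream of ThPOK, had a lineage effect of 1.02 (SE 0.06, limma adjusted p = 4.04e-08), and Runx1, the other Runx factor of the silencer, 0.94 (SE 0.11, limma adjusted p = 1.72e-05).

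For the coreceptor effect 1 regulator was higher and 1 lower, which is 6.90% of the list against 5.49% of all genes. Without B6 CD4 replicate 1 the higher count was 5, and with the replicate block it was 2. Lef1, an HMG factor, was higher by 0.43 (SE 0.05, limma adjusted p = 0.000219), at 469 and 437 CPM in CD4-bearing and CD8-bearing B6 cells and at 533 and 317 CPM in those of FlipFlop mice. Uhrf1, which maintains DNA methylation, had a coreceptor effect of -0.59 (SE 0.13, limma adjusted p = 0.0196), with 30.9 ± 7.16 CPM in FlipFlop CD8 cells and 12.6 to 15.3 CPM in the other groups. This call was lost without B6 CD8 replicate 1 and without FlipFlop CD4 replicate 2, which left 0 regulators called lower. In each case the FlipFlop CD8 mean lay farthest from the other 3 means.

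Of 16 genes of coreceptor signalling, all 16 were tested, and 4 were higher and 3 lower in the helper lineage, 43.8% of the list against 39.3% of all genes, with a median effect of 0.06. Lag3, given above, had the largest effect. Cd5, a negative regulator of receptor signals, was at 518 ± 57.3 CPM in B6 CD4 cells and 355 ± 5.91 CPM in FlipFlop CD8 cells against 214 ± 13.5 and 217 ± 4.72 CPM in the cytotoxic groups (SD, n = 3 each, lineage effect 0.99, SE 0.06, limma adjusted p = 3.75e-08). Unc119, an activator of Lck, had 0.91 (SE 0.09, limma adjusted p = 4.15e-06), and Ptpn22, a phosphatase that acts on Lck, had -0.60 (SE 0.06, limma adjusted p = 4.12e-06). For the coreceptor effect, averaged over both strains, 4 partners were called higher and none lower, against 1.71% and 3.78% of all genes, with a median of 0.10. They were Lag3 (0.70), Cd247 (the ζ chain, 0.30, limma adjusted p = 0.00458), Cd5 (0.28, limma adjusted p = 0.0124) and the adaptor Lat (0.22, limma adjusted p = 0.0432). For Lag3 and Cd5 the strains went opposite ways. In B6 mice both were higher in CD4-bearing than in CD8-bearing cells, by 2.27 and 1.27 (limma adjusted p = 7.02e-07 and 2.13e-07). In FlipFlop mice both were lower there, at -0.87 and -0.71 (limma adjusted p = 0.00154 and 2.52e-05). Cd247 and Lat were 0.42 and 0.30 in B6 mice (limma adjusted p = 0.000821 and 0.0149), and 0.19 and 0.14 in FlipFlop mice, where neither was called (limma adjusted p = 0.0672 and 0.219).

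Lck, the kinase that CD4 and CD8α bind through their cytoplasmic tails, was chosen for its role and not by size of effect. In B6 mice it was at 1078 ± 35.1 CPM in CD4-bearing and 1025 ± 61.4 CPM in CD8-bearing cells, and in FlipFlop mice at 1108 ± 19.5 and 1045 ± 62.7 CPM (SD, n = 3 each). Its lineage effect of -0.01 and coreceptor effect of 0.08 were not called (SE 0.05 each, limma adjusted p = 0.948 and 0.447).

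**Figure D5:**
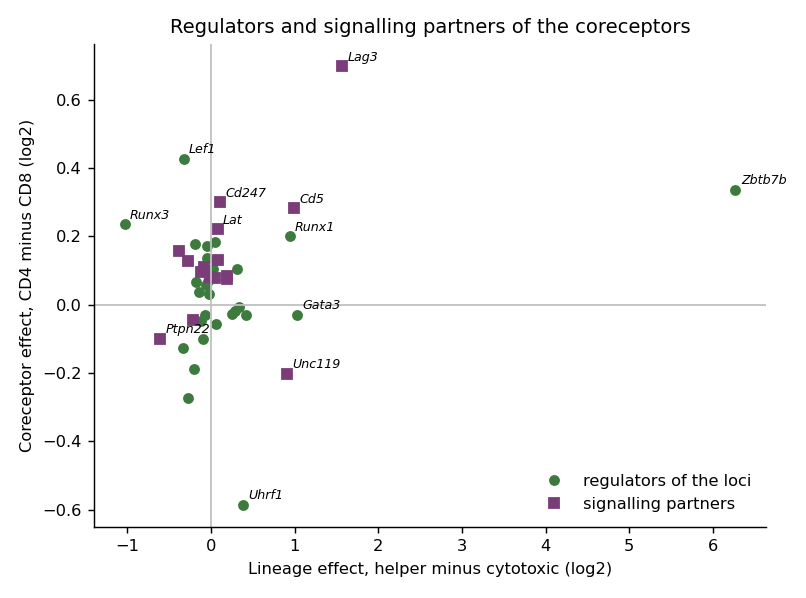
Lineage effect against coreceptor effect, both as log2 differences, for 29 regulators of the coreceptor loci (circles) and 16 signalling partners (squares). Names are given to the 4 with the largest lineage effect in each list and to those called for the coreceptor effect; Zbtb7b lies at 6.27 on the lineage axis and Lag3 at 0.70 on the coreceptor axis.

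Genes whose pattern over the 12 libraries was most like each coreceptor gene were ranked by Pearson r of log2(CPM + 0.5) over all tested genes. These values describe 12 libraries in 4 clusters and carry no test. The order depends on the measure, since by Spearman's rho the 5 genes named for Cd8b1 rank from 57 to 532, those for Cd8a from 4 to 26 and those for Cd4 from 5 to 11. For Cd8b1 they were Nedd4 (a ubiquitin ligase, r = 0.996), Ccr9 (a chemokine receptor), Agpat4 (an acyltransferase), A930002I21Rik and Crtam (an adhesion receptor), the last with r = 0.990. Nedd4 was at 86.9 and 72.6 CPM in B6 CD8 cells and in FlipFlop CD4 cells, at 14.9 CPM in FlipFlop CD8 and at 5.86 CPM in B6 CD4 cells, the same intermediate place of FlipFlop CD8 cells as for Cd8b1. Ccr9 was at 232, 280, 43.6 and 13.6 CPM in the same order.

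For Cd8a the most similar genes were Arl4d (r = 0.983), Gpr160, Trbv12-2, Dapk2 and Lrrk1 (r = 0.932). Arl4d, a small GTPase, was at 6.33 CPM in B6 CD8 cells and 3.30 CPM in FlipFlop CD8 cells and at 1.31 and 1.29 CPM in B6 CD4 and FlipFlop CD4 cells. For Cd4 all 5 were T cell receptor variable segments, Trav6-5 (r = 0.962), Trav4-4-dv10, Trav14d-3-dv8, Trbv31 and Trav9-1 (r = 0.925). Trbv31 was at 52.2 ± 4.57 CPM in B6 CD4, 36.0 ± 2.49 in FlipFlop CD4, 33.8 ± 1.39 in FlipFlop CD8 and 11.2 ± 0.978 in B6 CD8 cells (SD, n = 3 each). Variable segments have near-identical copies, so reads may be split between them. Cd4 with Cd8a had r = -0.98, Cd4 with Cd8b1 r = -0.48 and Cd8a with Cd8b1 r = 0.37 over the 12 libraries.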

How the data were processed

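RNA from lymph node T cells sorted on surface CD4 or CD8 was sequenced in 12 libraries, 3 per group by the labels. The study's methods name paired-end sequencing of SMARTer libraries and STAR on mm10, while the submitters' processing notes name Trimmomatic, TopHat and mm10. The read counter and the filter on genes are not given in the sources used here. The deposited expression signal is a TMM-adjusted CPM, made by the authors, with all 12 columns used. The values are steps of 0.01 read and 84.8% to 86.4% of values under 100 CPM were whole reads within 0.005 read, so no count model was run. Estimated reads come from those steps.

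Values were tested with limma 3.58.1 in R 4.3.3 (trend, group means, 8 residual degrees of freedom) on log2(CPM + 0.5) after the filter, two-sided. The script was tested on simulated data. Single values were compared by exact permutation tests over libraries. Gene positions and lengths are from GENCODE M21 on GRCm38, which matched all 12809 identifiers. Motifs were searched in RefSeq promoters, with 1 of the 3 genes matched. The columns hold no authors' comparisons. From each list the text names at most 4 members with the largest lineage effect and any called for the coreceptor effect, and the 5 genes most similar to each coreceptor gene. The members and lists were chosen with earlier results of these data known. Alternatives were the pseudocount, the filter, the scaling, a fit to the compared libraries, a replicate block, leaving out each library, and other lengths for the ratio.

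Replicate numbers were checked for pairing by correlating deviations of CD4 and CD8 libraries from their group means. The same-number correlations were 0.443, 0.271 and 0.513 in FlipFlop and 0.184, 0.0887 and 0.352 in B6 libraries. Different-number correlations were -0.379 to -0.0369 in FlipFlop and -0.348 to 0.155 in B6 libraries. The numbers thus paired the FlipFlop samples, as a pattern in the data. For the B6 samples the ranges overlapped, and pairing was not settled.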

Additional observations from a re-analysis of the deposited data

Results flagged for a closer look

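The difference between CD4-bearing and CD8-bearing cells was not the same in the 2 strains for any coreceptor gene, by the interaction term in limma over all 12 libraries. In this design the term is 2 times the lineage effect given above, with the same p, and is no separate evidence. The B6 difference minus the FlipFlop difference was 5.16 on the log2 scale for Cd4 (SE 0.34, limma adjusted p = 1.42e-07). For Cd8a it was -3.41 (SE 0.30, limma adjusted p = 1.60e-06). For Cd8b1 it was -10.02 (SE 0.16, limma adjusted p = 5.13e-13), and there the direction itself differed, with every B6 CD8 library above every B6 CD4 library and every FlipFlop CD8 library below every FlipFlop CD4 library. Strain and age cannot be told apart in these terms. Groups of 3 are too small for a search for single outlying libraries, which was not made.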

How the results depend on the processing

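The 27 comparisons of the 3 genes were recomputed under alternative settings. This gave 207 values with no single library left out and 324 with 1 library left out, and 204 and 320 of these kept direction and call. Many differences could not change, since leaving out a library outside the pair or changing the filter moves only the p-value. The counts are therefore a weak measure of stability. The exceptions were pairs with small differences. Cd4 in FlipFlop CD4 against B6 CD4 became significant with a pseudocount of 1 (-0.61, limma adjusted p = 0.0330), with only the 6 libraries compared (-0.61, limma adjusted p = 0.00369), and without B6 CD8 replicate 1 or 2, over a leave-one-out range of -0.66 to -0.56 and an adjusted p of 0.00369 to 0.179 over 20 limma alternatives. Cd8a in the same pair ranged from -0.23 to 0.36 when a library was left out and turned negative without B6 CD4 replicate 2. Cd8b1 in FlipFlop CD4 against B6 CD8 was 0.011 without the TMM factor, and ranged from -0.10 to 0.030, turning positive without FlipFlop CD4 replicate 3. The cause was not tested.

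Without the TMM factor the median of all genes moved by 0.23 for FlipFlop CD8 minus B6 CD8, -0.17 within FlipFlop, 0.16 for FlipFlop CD8 minus B6 CD4, 0.12 for lineage and 0.11 for strain. The share of called genes that were higher went from 57.3% to 69.5% within B6, 1779 of 3633 to 787 of 3744 genes within FlipFlop, 47.7% to 79.9% for FlipFlop CD8 minus B6 CD8, 47.8% to 83.8% for FlipFlop CD8 minus B6 CD4, 31.1% to 16.3% for coreceptor, 50.6% to 75.5% for lineage and 50.5% to 81.0% for strain. With only the 6 libraries compared, FlipFlop CD8 minus B6 CD4 called 1500 genes against 3196, of which 63.2% were higher. Requiring an unadjusted p under 0.05 and over 5-fold called 182 genes within B6, 256 within FlipFlop, 170 for FlipFlop CD4 minus B6 CD4, 353 for FlipFlop CD8 minus B6 CD8, 62 for FlipFlop CD4 minus B6 CD8, 52 for FlipFlop CD8 minus B6 CD4, 2 for coreceptor, 187 for lineage and 44 for strain, against 2944, 3633, 3296, 5179, 918, 3196, 636, 4554 and 3615. Genes averaging at least 5 CPM gave 301 coreceptor calls. With 1 library left out, calls ranged from 515 to 1566 for FlipFlop CD4 minus B6 CD8, 1654 to 3751 for FlipFlop CD8 minus B6 CD4 and 396 to 604 for coreceptor.

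Counts in the gene lists moved as follows. Without the TMM factor, regulators lower in the helper lineage went from 5 to 2, partners higher from 4 to 9, neighbours higher from 6 to 13, and neighbours lower for coreceptor from 1 to 2. With the filter at 5 CPM, neighbours higher in the helper lineage were 3 and neighbours lower for coreceptor 0. With the replicate block, regulators higher for coreceptor were 2 (Zbtb7b joined, limma adjusted p = 0.0481), partners lower in the helper lineage 5, neighbours lower 8 in the helper lineage and 3 for coreceptor. The replicate block changed no call for the 3 genes. With 1 library left out, regulators higher for coreceptor ranged from 1 to 5 (5 without B6 CD4 replicate 1), regulators lower from 0 to 1 for coreceptor and 3 to 5 for lineage, and neighbours lower from 1 to 2 for coreceptor and 3 to 7 for lineage (the 7 without B6 CD4 replicate 1).

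The Cd8a to Cd8b1 ratio per kilobase was 0.682 in B6 CD8 and 0.914 in FlipFlop CD8 by coding length, and 0.375 and 0.502 by the length of the coding transcript, a length chosen after seeing the data. Without the TMM factor the residual percent was 7.14% for Cd4 in FlipFlop CD8, and 0.563% for Cd8a and 1179% for Cd8b1 in FlipFlop CD4 cells. Depth left 13 to 52 reads behind each Cd8a value in CD4-bearing cells and 15 to 64 behind Cd4 in B6 CD8 cells, which limits those values. Counting error was not modelled separately.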
